A study of Mus musculus with 9 samples.

Results

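The genes described here are 9 transcripts that mark monocytes and the macrophages of the lung interstitium: Apoe, Adgre1, Lyz2, Ms4a7, Mrc1, Cd163, Ly6c2, Trem2 and Abca1. They were chosen by gene name. All 9 were found, among the 54449 genes of the table, and all 9 passed the filter on low values that left 13642 genes to be tested. The study isolated eosinophils, granulocytes of type 2 immunity, from the lungs of C57BL/6 mice by flow cytometry. The iEOS libraries (n = 3) are labelled as cells with high surface Siglec-F from metastatic lungs after PyMT tumour cells were injected by the tail vein. The rEOS libraries (n = 3) are labelled as cells with intermediate Siglec-F from lungs of mice treated in the same way. The Naive libraries (n = 3) are labelled as lung eosinophils of mice that received saline alone. All 3 groups share the strain, and each library pooled 3 to 4 mice, was sorted to a labelled purity above 98% and was sequenced as RNA, so n counts pools of mice and a p-value measures the spread between pools.

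Monocytes leave the blood carrying the surface protein Ly6C and can become macrophages in tissue, where F4/80, the mannose receptor and MS4A proteins mark their new state. Macrophages clear lipid-rich debris: TREM2 senses lipids at the cell surface, ABCA1 exports cholesterol and phospholipid, and APOE carries them away. Several of these genes are not exclusive to macrophages. Apoe and Abca1 are transcribed by many cell types, granulocytes also make lysozyme, and mouse eosinophils themselves carry F4/80.

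The labelled cell type was checked first. Siglecf, the gene of the sorting marker, rested on 39 reads over the libraries labelled iEOS, 96 over those labelled rEOS and 28 over those labelled Naive. Epx, the eosinophil peroxidase, was at 0 in 2 of 3 libraries of each group, and Ccr3, the eotaxin receptor, was at 0 in all 3 libraries labelled Naive. Prg2, the eosinophil major basic protein, stood at 6.58, 0.60 and 379.5 normalized counts for iEOS, 3.76, 8 and 105.6 for rEOS and 0, 0 and 15.03 for Naive, so that library 3 was the highest of each group, with 445 reads for iEOS and 334 for rEOS. Neither difference of Prg2 from Naive was called. The summed level of 10 eosinophil genes was 52.5 to 658 for iEOS, 48.9 to 204 for rEOS and 93.6 to 126 for Naive. Pigment cell markers held 0.00386% to 0.0216% of the reads in the libraries labelled iEOS, 0.00799% to 0.0165% in those labelled rEOS and 1.07% to 1.46% in those labelled Naive. These levels go against the labels, so iEOS, rEOS and Naive stand below for libraries as they are labelled. Depth ran from 4941900 to 7171066 reads in the libraries labelled iEOS, from 7517513 to 12495639 in those labelled rEOS and from 2205949 to 5529406 in those labelled Naive.

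A pair of libraries stood apart from the others of their group. iEOS library 1 held the highest value of 25.9% of all genes tested and the lowest value of 32.4%. rEOS library 2 was the highest library for all 21 genes of a core macrophage list, against 10.4% of all genes tested. The summed level of that list was 131188 in rEOS library 2, in normalized counts, and 32016 and 38656 in the other two of that label. Values without these libraries are given below where they change a call or move a fold change most. In bulk samples, fewer cells of a type and less RNA per cell cannot be told apart.

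All values are normalized counts, that is reads per gene over the library's size factor, shown by library or as mean ± SD over 3 libraries. Fold changes are differences of log2(value + 1) ± SE from limma in 1 fit of all 9 libraries, with p-values adjusted by the Benjamini-Hochberg method over all 13642 genes and a threshold of 0.05. On this scale the change of a scarce gene comes out too small.

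**Figure D1:**
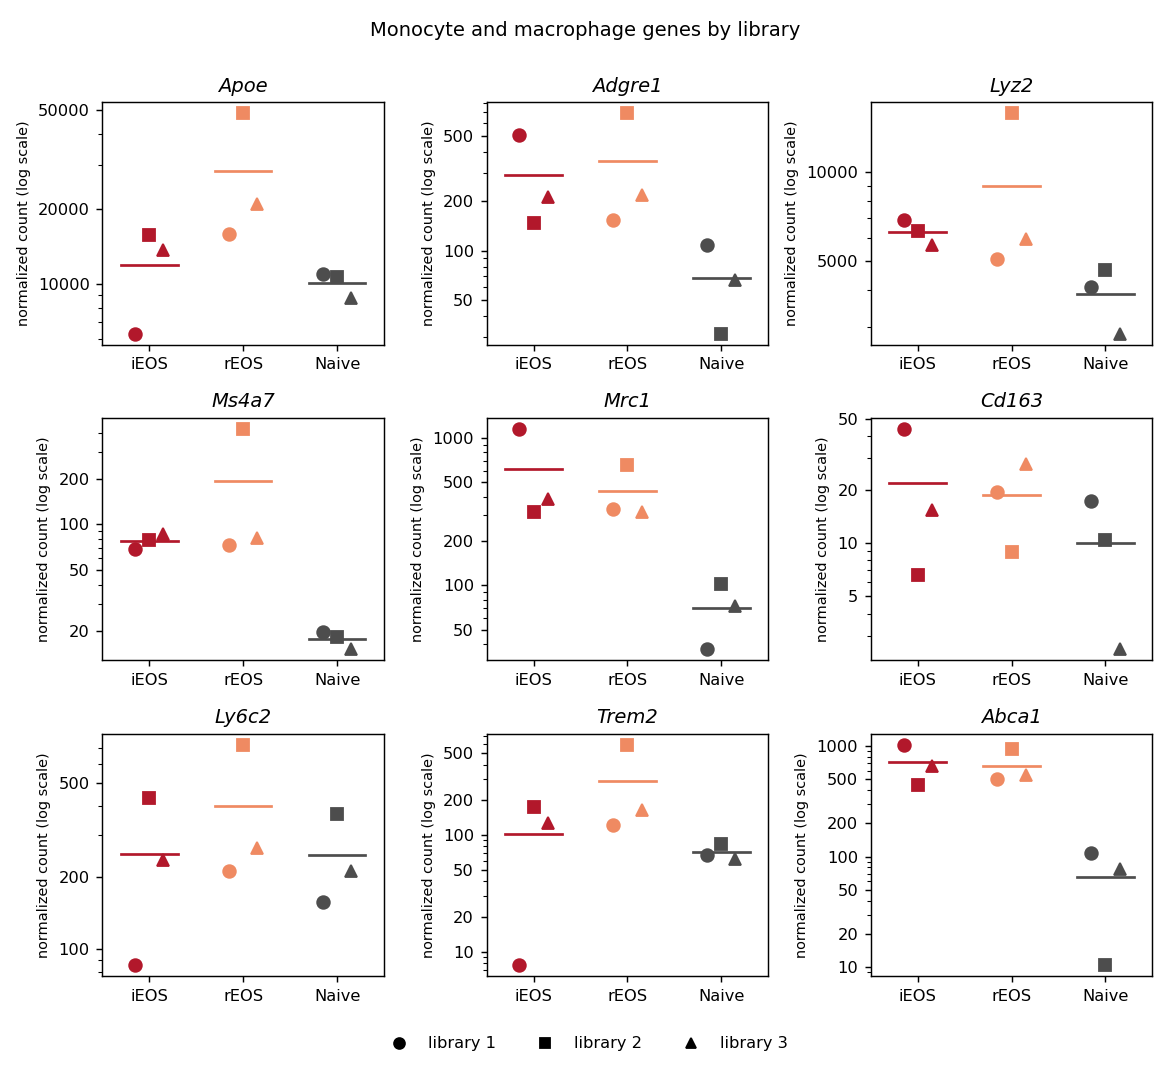
Normalized counts of the 9 genes (log axis) in each library labelled iEOS, rEOS and Naive, with the group mean as a horizontal line and the library number as the symbol. Mrc1, Abca1, Ms4a7 and Adgre1 lay higher in all 6 libraries labelled iEOS or rEOS than in the 3 labelled Naive, while rEOS library 2 was the highest for 6 of the 9 genes.

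The promoters of Mrc1, Abca1, Apoe and Trem2 are printed with 2 short motifs in capitals, so that their sequences can be compared. The motifs are GAGGAA, the core bound by PU.1 and other ETS factors, with its reverse complement TTCCTC, and AGGTCA, one arm of the site bound by nuclear receptors such as LXR, with its reverse complement TGACCT. Mrc1 and Abca1 rose in both comparisons with Naive, as did Ms4a7 and Adgre1, whose promoters are not printed. Apoe and Trem2 were lowest of all 9 libraries in iEOS library 1, as was Ly6c2, whose promoter is not printed. The sequences are from RefSeq (GRCm38.p6), 300 bases each, read along the gene's own strand from 250 bases before its start to 50 after it.
Mrc1, chr2:14229164-14229463, plus strand: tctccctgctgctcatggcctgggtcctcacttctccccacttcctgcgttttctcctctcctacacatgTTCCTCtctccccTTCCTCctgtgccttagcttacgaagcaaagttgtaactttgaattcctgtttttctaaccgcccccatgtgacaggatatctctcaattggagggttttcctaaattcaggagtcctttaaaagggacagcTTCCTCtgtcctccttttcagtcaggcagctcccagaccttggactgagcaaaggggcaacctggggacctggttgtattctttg
Abca1, chr4:53159846-53160145, minus strand: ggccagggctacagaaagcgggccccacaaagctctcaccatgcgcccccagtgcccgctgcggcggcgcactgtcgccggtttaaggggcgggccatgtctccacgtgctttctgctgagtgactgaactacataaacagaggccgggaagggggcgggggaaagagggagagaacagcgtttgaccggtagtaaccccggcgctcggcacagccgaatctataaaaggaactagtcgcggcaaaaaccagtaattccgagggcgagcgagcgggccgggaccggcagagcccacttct
Apoe, chr7:19699139-19699438, minus strand: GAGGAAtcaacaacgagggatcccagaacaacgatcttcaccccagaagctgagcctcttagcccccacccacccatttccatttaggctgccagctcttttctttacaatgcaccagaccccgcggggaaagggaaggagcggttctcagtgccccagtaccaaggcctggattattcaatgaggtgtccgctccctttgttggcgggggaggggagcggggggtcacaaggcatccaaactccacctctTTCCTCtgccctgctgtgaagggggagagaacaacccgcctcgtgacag
Trem2, chr17:48346151-48346450, plus strand: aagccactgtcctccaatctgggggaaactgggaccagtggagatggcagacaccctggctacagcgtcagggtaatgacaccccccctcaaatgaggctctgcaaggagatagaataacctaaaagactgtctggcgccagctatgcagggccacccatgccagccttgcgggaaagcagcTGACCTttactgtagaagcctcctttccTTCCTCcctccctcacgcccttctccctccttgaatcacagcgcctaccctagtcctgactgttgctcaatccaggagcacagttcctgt

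Of the 9 genes, 8 matched 12 promoter windows in the RefSeq table. GAGGAA on either strand occurred in 7 of these windows, from 5 genes, against 28.3% of 32851 promoter windows of the same length. Windows of the same gene can overlap, and both Ly6c2 windows hold the same matches, so the 12 windows are not separate. The Mrc1 window held 3 matches, the Apoe window printed above 2 and the Trem2 window 1, and the Abca1 window held none of either motif. AGGTCA occurred in 1 of the 12 windows, that of Trem2, against 16.3% of all windows. A match describes the letters and not a bound site. Only these exact letters were searched, so a window without a match may still hold a variant of either site.

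Mrc1, the endocytic mannose receptor CD206 (ENSMUSG00000026712.3, chromosome 2, 14229392 to 14332057, GRCm38), rose in the libraries labelled iEOS and in those labelled rEOS. Levels of Mrc1 were 1150.53, 316 and 387 for the libraries labelled iEOS, 329, 662 and 315 for those labelled rEOS and 36.7, 102 and 72.7 for those labelled Naive. Every library of the first pair of groups lay above every library labelled Naive, and the highest was iEOS library 1. The log2 fold change was 2.99 ± 0.55 between iEOS and Naive (limma adjusted p = 0.00379) and 2.64 ± 0.55 between rEOS and Naive (adjusted p = 0.00780). Mrc1 was called in both comparisons under all 22 other settings, over log2 fold changes of 2.41 to 3.34 against Naive for iEOS and 2.24 to 2.96 for rEOS.

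Cd163, the scavenger receptor for haemoglobin bound to haptoglobin (chromosome 6, 124304656 to 124330527), is a second marker of tissue macrophages and was scarce throughout. Its levels were 43.9, 6.56 and 15.4 in the libraries labelled iEOS, 19.3, 8.85 and 27.8 in those labelled rEOS and 17.2, 10.4 and 2.51 in those labelled Naive. The 3 groups overlapped. The values labelled Naive rested on 15, 4 and 3 reads, and the value 10.4 has an exact 95% Poisson interval of 2.84 to 26.7, which covers counting error only. The log2 fold changes of 0.98 ± 0.88 between iEOS and Naive (limma adjusted p = 0.403) and 0.99 ± 0.88 between rEOS and Naive (adjusted p = 0.438) were not called. The fold change for iEOS was 0.30 without iEOS library 1, and that for rEOS was 1.43 without rEOS library 2.

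Adgre1, which encodes the F4/80 antigen (chromosome 17, 57358691 to 57483527), rose in both groups on a call that single libraries decided. It stood at 507, 148 and 214 in the libraries labelled iEOS, at 155, 688 and 219.83 in those labelled rEOS and at 108, 31.3 and 66.8 in those labelled Naive. No library labelled Naive reached the lowest of the other 6. The log2 fold change between iEOS and Naive was 2.03 ± 0.66 (limma adjusted p = 0.0386), and that between rEOS and Naive was 2.21 ± 0.66 (adjusted p = 0.0354). With the replicate number as a block the adjusted p-values were 0.0529 for iEOS and 0.0502 for rEOS, so that both calls ended. The iEOS call also ended without a filter, without a variance trend, with only the 2 groups compared in the fit, without both libraries that stood apart, and without Naive library 2 (1.56, adjusted p = 0.131), Naive library 3 (0.0799), iEOS library 1 (1.53, 0.105), iEOS library 3 (0.0660) or rEOS library 3 (0.0556). The rEOS call ended without a filter, without a variance trend, and without Naive library 2 (1.74, adjusted p = 0.121), Naive library 3 (0.0777), iEOS library 3 (0.0501), rEOS library 2 (1.58, 0.124) or rEOS library 3 (0.0745). Over all other settings its adjusted p ran from 0.00634 to 0.131 for iEOS and from 0.00255 to 0.124 for rEOS.

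Ms4a7, a membrane protein of the MS4A family found on macrophages (chromosome 19, 11321039 to 11336146), rose in both groups. Its levels were 69.1, 78.8 and 87.0 in the libraries labelled iEOS, 73.5, 423 and 81.3 in those labelled rEOS and 19.5, 18.2 and 15.03 in those labelled Naive. Apart from rEOS library 2, the values within a group lay close together, and no library labelled Naive reached the others. Its log2 fold change was 2.09 ± 0.62 between iEOS and Naive (limma adjusted p = 0.0281) and 2.89 ± 0.62 between rEOS and Naive (adjusted p = 0.00891). Without rEOS library 2 the second was 2.08 and was still called. The first lost its call without Naive library 1 (adjusted p = 0.0604), 2 (0.0623) or 3 (0.0750) or without iEOS library 3 (0.0696), while its size stayed between 1.88 and 2.33 over all 22 settings and its adjusted p between 0.00554 and 0.0750.

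Abca1, the transporter that passes cholesterol and phospholipid to apolipoproteins (chromosome 4, 53030787 to 53159895), rose in the libraries labelled iEOS and in those labelled rEOS. It stood at 1025.5, 445 and 668 in the libraries labelled iEOS, at 505, 941 and 550.4 in those labelled rEOS and at 108, 10.4 and 77.7 in those labelled Naive. All 6 libraries labelled iEOS or rEOS lay far above the highest library labelled Naive. The log2 fold change was 3.87 ± 0.72 between iEOS and Naive (limma adjusted p = 0.00400) and 3.80 ± 0.72 between rEOS and Naive (adjusted p = 0.00526), called under all 22 other settings. Its size leaned on Naive library 2, whose value came from 4 reads (exact 95% Poisson interval 2.84 to 26.7 normalized counts). Without that library the fold changes were 2.86 for iEOS and 2.79 for rEOS, below those of Mrc1 in the same fit (3.31 for iEOS and 2.96 for rEOS), and without Naive library 1 they were 4.49 for iEOS and 4.42 for rEOS.

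Apoe, the lipid carrier that ABCA1 loads (ENSMUSG00000002985.16, chromosome 7, 19696109 to 19699188), was not called in either comparison with Naive. Its levels were 6299.95, 15736 and 13659 in the libraries labelled iEOS, 15785, 48489 and 20973 in those labelled rEOS and 10973, 10608 and 8736 in those labelled Naive. The libraries labelled rEOS lay above all others, and those labelled iEOS fell on both sides of those labelled Naive, with iEOS library 1 the lowest of all 9. Between rEOS and Naive the log2 fold change was 1.33 ± 0.46 (limma adjusted p = 0.0620), which was not called, and between iEOS and Naive it was 0.14 ± 0.46 (adjusted p = 0.837). The rEOS difference was called under 8 of 22 other settings, among them the replicate block (adjusted p = 0.0380), edgeR on recovered reads (1.70, adjusted p = 0.0243) and the fit without iEOS library 1 (0.0264), within a range of 0.00523 to 0.175. Without iEOS library 1 and rEOS library 2 it was 0.86 (adjusted p = 0.0221).

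Trem2, the lipid-sensing receptor for which APOE is a ligand (chromosome 17, 48346401 to 48354147), varied widely among the libraries labelled iEOS and rEOS and was not called. It stood at 7.68, 173 and 127 in the libraries labelled iEOS, at 122, 587 and 162 in those labelled rEOS and at 67.7, 83.4 and 62.7 in those labelled Naive. The value 7.68 rested on 7 reads, with an exact 95% Poisson interval of 3.09 to 15.8, and lay below every other library, while the other 5 libraries labelled iEOS or rEOS lay above all 3 labelled Naive. The log2 fold change was -0.31 ± 0.99 between iEOS and Naive (limma adjusted p = 0.829) and 1.67 ± 0.99 between rEOS and Naive (adjusted p = 0.248). Without iEOS library 1 the first was 1.06 (adjusted p = 0.191) and the second was called, with the same fold change and an adjusted p of 0.0296. With rEOS library 2 left out as well, both were called, at 1.06 (adjusted p = 0.0343) and 0.99 (adjusted p = 0.0405), over ranges of 0.0343 to 0.983 and 0.0296 to 0.569 for all other settings. The iEOS difference was called under 1 of 22 other settings and the rEOS difference under 4. These 4 include the fit of only the 2 groups compared (limma adjusted p = 0.0477), which holds no library labelled iEOS.

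Ly6c2, the gene of the Ly6C antigen by which classical monocytes are recognised (chromosome 15, 75108158 to 75111970), was not higher in either group by the test. Its levels were 85.6, 429 and 236 in the libraries labelled iEOS, 213, 718 and 266 in those labelled rEOS and 158, 369.9 and 213.00 in those labelled Naive. The groups overlapped, and the extremes were iEOS library 1 and rEOS library 2. The log2 fold changes were -0.17 ± 0.62 for iEOS (limma adjusted p = 0.849) and 0.57 ± 0.62 for rEOS (adjusted p = 0.542). Without iEOS library 1 the first was 0.46, and without rEOS library 2 the second was 0.04. Ly6c2 shares sequence with its neighbour Ly6c1, which endothelial cells also express: 32.6% of the 50-base words of the longest Ly6c2 transcript occur in a Ly6c1 transcript, so how reads were divided between them is uncertain. Ly6c1 stood at 717, 2797 and 2342 in the libraries labelled iEOS, 2041, 1109 and 1946.5 in those labelled rEOS and 1017, 1224 and 1295 in those labelled Naive, and it did not peak in rEOS library 2.

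Lyz2, lysozyme M (chromosome 10, 117277331 to 117282321), was higher in all 6 libraries labelled iEOS or rEOS than in those labelled Naive, and neither difference passed the threshold. It stood at 6888, 6333 and 5666 in the libraries labelled iEOS, at 5109, 15749 and 5964 in those labelled rEOS and at 4094, 4671 and 2856 in those labelled Naive. The log2 fold changes were 0.73 ± 0.41 for iEOS (limma adjusted p = 0.187) and 1.04 ± 0.41 for rEOS (adjusted p = 0.0902). The rEOS difference was called with equal totals (1.31, adjusted p = 0.0240), TMM factors (0.0483), quantile normalization (0.00770), edgeR (0.0330) and DESeq2 (0.0176), within a range of 0.00770 to 0.248, and was 0.54 without rEOS library 2 (adjusted p = 0.224). The iEOS difference was called with quantile normalization (0.98, adjusted p = 0.0265), within a range up to 0.424. Of the 50-base words of Lyz2, 15.4% also occur in its copy Lyz1, so how reads were divided between them is uncertain. Lyz1 stood at 41.8 to 64.7 in the libraries labelled iEOS, 19.3 to 45.5 in those labelled rEOS and 40.9 to 49.3 in those labelled Naive.

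**Figure D2:**
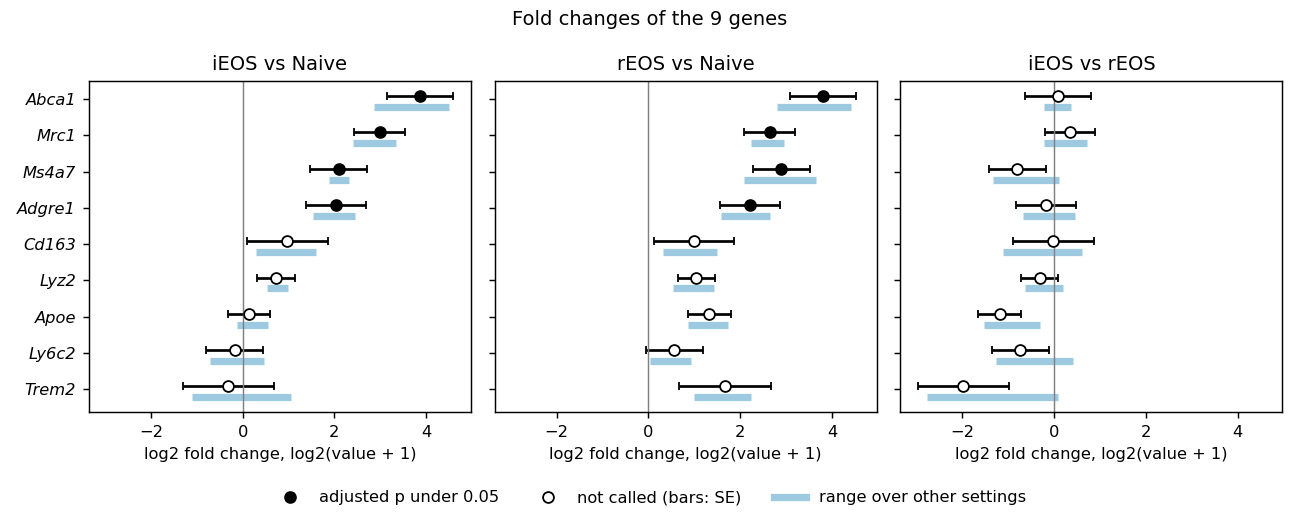
log2 fold changes on the log2(value + 1) scale (circles, with SE) of the 9 genes in the 3 comparisons, filled where the limma adjusted p was under 0.05. Blue bars give the range over 22 other settings, or 21 for Cd163. Abca1, Mrc1, Ms4a7 and Adgre1 were called against Naive for both groups, and no gene was called between iEOS and rEOS.

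The first comparison asks which of the genes differ between libraries labelled iEOS and Naive, and the second asks the same of those labelled rEOS and Naive. In the comparison of iEOS with Naive, 4 of the 9 genes rose and 5 were not called, where 14.7% of all 13642 genes rose. The median log2 fold change of the 9 genes was 0.98, against -0.11 over all genes. In the comparison of rEOS with Naive, the same 4 rose and 5 were not called, where 12.0% of all genes rose, and the medians were 1.67 for the 9 genes and -0.02 for all. None of the 9 fell, where 16.6% of all genes fell in the libraries labelled iEOS and 10.3% in those labelled rEOS. All 3 libraries labelled iEOS lay above all 3 labelled Naive for 5 of the 9 genes (20.2% of all genes), and those labelled rEOS did so for 7 (23.3%). On recovered reads, edgeR called the same 4 of the 9 for iEOS (26.0% of all genes in either direction) and DESeq2 did so too (36.5%). For rEOS, edgeR called 6 of the 9 (21.1%) and DESeq2 called 7 (29.6%). Both comparisons use the same Naive libraries, so one is not independent of the other. Without Naive library 2, Naive library 3 or iEOS library 3, the calls for iEOS were 2, Mrc1 and Abca1. Without iEOS library 1 and rEOS library 2, 4 genes rose for iEOS (Ms4a7, Mrc1, Trem2 and Abca1) and 6 for rEOS (these and Adgre1 and Apoe), where 13.7% of all genes rose for iEOS and 15.1% for rEOS.

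Of all calls, 46.9% were higher for iEOS and 53.8% for rEOS with the scaling as deposited. With equal totals in every library these shares were 57.0% for iEOS and 69.1% for rEOS, with edgeR 61.2% for iEOS and 63.9% for rEOS, and with TMM factors 67.5% for rEOS. Equal totals shifted the median of all genes to 0.02 for iEOS and 0.23 for rEOS, by more than 0.1. The signs of the 9 fold changes against Naive were the same with equal totals and TMM factors, and with quantile normalization the fold change of Ly6c2 for iEOS was 0.00498 in place of -0.17.

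The third comparison set the libraries labelled as high in Siglec-F against those labelled as intermediate. Siglecf itself stood at 17.6, 3.58 and 14.5 in the libraries labelled iEOS and 6.98, 20.2 and 11.1 in those labelled rEOS, and the groups overlapped. None of the 9 genes was called, and limma and edgeR called 0 of 13642 genes (0.00%), DESeq2 called 6 (0.0442%), and 591 genes had an unadjusted p under 0.05. Apoe was the one member with such a p, at 11898.5 ± 4958 in the libraries labelled iEOS and 28416 ± 17577 in those labelled rEOS, a log2 fold change of -1.19 ± 0.46 (unadjusted p = 0.0263, limma adjusted p = 0.797). It was -0.72 without rEOS library 2, -0.78 without iEOS library 1 and -0.31 without both, where the unadjusted limma p was 0.244. All 3 libraries labelled iEOS lay below those labelled rEOS for Apoe, but narrowly, with 15736 in iEOS library 2 and 15785 in rEOS library 1. The share of all genes that lay below in this way was not counted. For 0 of the 9 genes did all 3 libraries labelled iEOS lie above those labelled rEOS (5.52% of all genes). Trem2 differed by -1.98 ± 0.99 (adjusted p = 0.797), and by 0.07 without iEOS library 1 and rEOS library 2. The 4 genes that rose against Naive differed by -0.80 ± 0.62 for Ms4a7, -0.18 ± 0.66 for Adgre1, 0.07 ± 0.72 for Abca1 and 0.35 ± 0.55 for Mrc1. An adjusted p above the threshold does not show that the groups were alike.

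rEOS library 2 was the highest of all 9 libraries for Apoe, Adgre1, Lyz2, Ms4a7, Ly6c2 and Trem2, or 66.7% of the 9 genes, against 10.4% of all genes tested. It exceeded the mean of rEOS libraries 1 and 3 by a ratio of 2.64 for Apoe, 3.67 for Adgre1, 2.84 for Lyz2, 5.46 for Ms4a7, 3.00 for Ly6c2 and 4.13 for Trem2. The ratio was 2.94 for Csf1r, the receptor of the growth factor on which macrophages depend, 2.20 for Ptprc, the leukocyte antigen CD45, and 0.375 for Cd163. iEOS library 1 was the highest for Mrc1, Cd163 and Abca1 and the lowest for Apoe, Ly6c2 and Trem2, that is 33.3% of the 9 genes each way, near its 25.9% highest and 32.4% lowest over all genes tested. Its ratio to the mean of iEOS libraries 2 and 3 was 3.27 for Mrc1, 4.00 for Cd163 and 1.84 for Abca1, but 0.429 for Apoe, 0.257 for Ly6c2 and 0.0512 for Trem2. Csf1r had a ratio of 0.939 there. C1qa and C1qb, subunits of the complement component C1q that macrophages secrete, were also low in that library: C1qa stood at 47.2, 730.2 and 439 in the libraries labelled iEOS. What separates these libraries from the others was not tested.

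Levels were also divided by that of Csf1r in the same library, a description chosen after the values were seen. Csf1r itself rose, to 733 ± 41.3 in the libraries labelled iEOS and 1592 ± 1087 in those labelled rEOS, against 234 ± 81.6 in those labelled Naive (log2 fold change 1.70 ± 0.43 for iEOS, limma adjusted p = 0.0153, and 2.61 ± 0.43 for rEOS, adjusted p = 0.00274). The ratio of Apoe to Csf1r was 8.96 to 20.2 in the libraries labelled iEOS, 17.1 to 19.7 in those labelled rEOS and 32.6 to 65.1 in those labelled Naive. The 3 ratios labelled rEOS lay close together, library 2 included, while their Apoe levels spread from 15785 to 48489. Ly6c2 had ratios of 0.122 to 0.550 in the libraries labelled iEOS, 0.246 to 0.253 in those labelled rEOS and 0.939 to 1.14 in those labelled Naive. The ratios of Lyz2 were 7.91 to 9.80 in the libraries labelled iEOS, 5.54 to 5.89 in those labelled rEOS and 13.7 to 24.3 in those labelled Naive. For Apoe, Ly6c2, Lyz2 and Trem2 every library labelled Naive had a higher ratio than all of the other 6. With Ptprc in place of Csf1r this held for Apoe, Ly6c2 and Lyz2 but not for Trem2, whose ratios were 0.00617 to 0.264 in the libraries labelled iEOS, 0.108 to 0.249 in those labelled rEOS and 0.211 to 0.881 in those labelled Naive. The Apoe ratios to Ptprc in the libraries labelled rEOS spread from 14.0 to 20.7. Csf1r and Ptprc were themselves higher in all 6 libraries labelled iEOS or rEOS. A gene that rose less than the divisor therefore has lower ratios there than in the libraries labelled Naive. How many of all genes show such ratios was not counted, so they do not set these genes apart. Mrc1, Adgre1, Ms4a7, Abca1 and Cd163 overlapped between rEOS and Naive in their ratios to Csf1r. Between iEOS and Naive all of these but Mrc1 overlapped. Mrc1 had ratios of 0.405 to 1.64 in the libraries labelled iEOS, 0.233 to 0.379 in those labelled rEOS and 0.218 to 0.348 in those labelled Naive. Its ratios to Ptprc did overlap, at 0.469 to 0.925 for iEOS and 0.257 to 0.492 for Naive. The ratios of Abca1 to Csf1r were 0.570 to 1.46 in the libraries labelled iEOS, 0.331 to 0.582 in those labelled rEOS and 0.0320 to 0.639 in those labelled Naive.

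**Figure D3:**
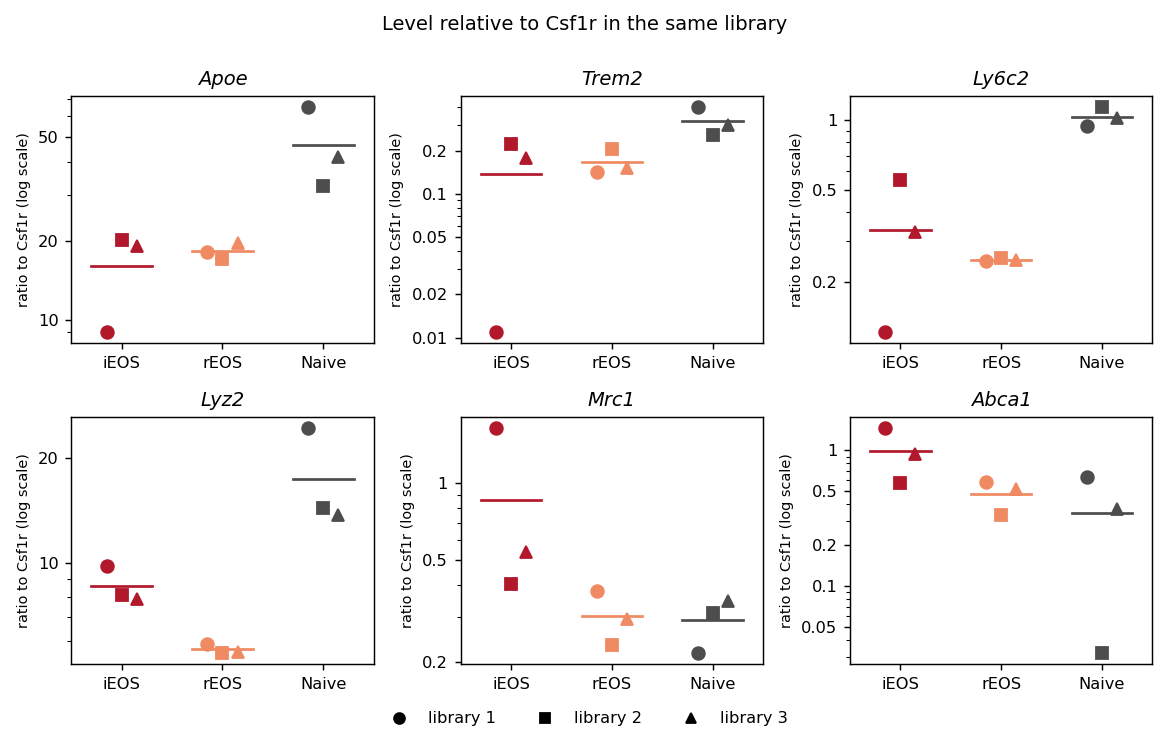
Level of 6 of the genes divided by the level of Csf1r in the same library (log axis), with group means as horizontal lines and library numbers as symbols. The libraries labelled Naive have the highest ratios of Apoe, Trem2, Ly6c2 and Lyz2, and iEOS library 1 has the lowest ratios of Apoe, Trem2 and Ly6c2. Csf1r itself rose against Naive in both groups.

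Other genes of these cells were counted in lists. Of 21 core macrophage genes, 10 rose for iEOS and 13 for rEOS and none fell, with median log2 fold changes of 1.20 for iEOS and 2.35 for rEOS. The shares of all genes that rose were 14.7% for iEOS and 12.0% for rEOS. Without iEOS library 1 and rEOS library 2 the core macrophage counts were 13 for iEOS and 15 for rEOS. In that fit 13.7% of all genes rose for iEOS and 15.1% for rEOS. Without Naive library 1 the core macrophage count for iEOS was 6. The genes that rose included Aif1, a calcium-binding protein of activated macrophages (2.44 ± 0.49 for iEOS, limma adjusted p = 0.00541, and 3.48 ± 0.49 for rEOS, adjusted p = 0.00129). Of 18 monocyte genes, 7 rose for iEOS and 6 for rEOS, with medians of 0.63 for iEOS and 0.71 for rEOS. Without the pair of libraries that stood apart 9 rose for iEOS, and 7 rose and 1 fell for rEOS. Ms4a6c is on both this list and the core macrophage list. Ccr2, the receptor by which monocytes follow CCL2, was at 222, 86.5 and 130 in the libraries labelled iEOS, 192, 462 and 180.3 in those labelled rEOS and 13.8, 13.03 and 29.2 in those labelled Naive. It rose by 2.89 ± 0.53 for iEOS and 3.78 ± 0.53 for rEOS (limma adjusted p = 0.00373 for iEOS and 0.00134 for rEOS). Cx3cr1, the fractalkine receptor, rose by 2.48 ± 0.50 for iEOS and 3.40 ± 0.50 for rEOS. F13a1, coagulation factor XIII A, which monocytes make, rose by 3.50 ± 0.43 for iEOS and 3.55 ± 0.43 for rEOS. These were the called genes with the smallest adjusted p, and 11 of the 18 genes for iEOS and 12 for rEOS were not called. Hp, of the same list, went the other way and was not called. It stood at 71.3 to 156 in the libraries labelled iEOS, 84.7 to 127 in those labelled rEOS and 165 to 218 in those labelled Naive.

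Of 14 tested markers of resident interstitial macrophages, 2 rose and 1 fell for iEOS, and 1 rose and 1 fell for rEOS, with medians of 0.30 for iEOS and 1.13 for rEOS. Over all genes, 14.7% rose and 16.6% fell for iEOS, and 12.0% rose and 10.3% fell for rEOS. The counts of this list are therefore not above those over all genes in the main fit. Without iEOS library 2, 4 rose for iEOS and the median was -0.18. For rEOS, 4 rose without iEOS library 1, 2 without iEOS library 2 or 3, 6 with the replicate block and 7 with DESeq2. Pf4, a chemokine of platelets and macrophages, rose by 1.64 ± 0.37 for iEOS (limma adjusted p = 0.00910) and 1.74 ± 0.37 for rEOS (adjusted p = 0.00815). Tmem176b was the gene that fell in both comparisons. It stood at 1548, 2871 and 2328 in the libraries labelled iEOS and 2509, 3274 and 2098 in those labelled rEOS. In those labelled Naive it stood at 5407, 5280 and 5978. Lyve1, a hyaluronan receptor shared with lymphatic endothelium, was at 733, 172 and 511 in the libraries labelled iEOS, 353, 156.3 and 487 in those labelled rEOS and 122, 156.3 and 152 in those labelled Naive, and was not called. Folr2, a folate receptor, was at 55.9, 183 and 119 in the libraries labelled iEOS, 147, 476 and 171 in those labelled rEOS and 60.8, 107 and 99.4 in those labelled Naive, and was not called either.

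Lists of genes that work with Abca1 and Trem2 were counted next. Of 16 tested genes of cholesterol efflux and LXR signalling, 2 rose and 3 fell for iEOS, and 2 rose and none fell for rEOS, with medians of -0.18 for iEOS (0.01 with edgeR) and -0.43 for rEOS. Over all genes, 14.7% rose and 16.6% fell for iEOS and 12.0% rose and 10.3% fell for rEOS, so the counts for iEOS lie near those over all genes. Without the pair of libraries that stood apart, 3 fell for rEOS. Only 1 rose for iEOS without Naive library 1 or 3, and for rEOS without Naive library 1 or 3 or rEOS library 3. Lrp1, an endocytic receptor for APOE, rose by 2.21 ± 0.38 for iEOS (limma adjusted p = 0.00274) and also for rEOS (adjusted p = 0.00196), and Lpl, lipoprotein lipase, by 1.54 ± 0.40 for iEOS and 1.61 ± 0.40 for rEOS. The 3 genes that fell for iEOS were Lpcat3, Rxrb and Srebf1. Lpcat3 stood at 29.6, 165 and 75.1 in the libraries labelled iEOS and 195, 182 and 184 in those labelled rEOS. In those labelled Naive it stood at 549, 419 and 458. Abcg1, the other cholesterol exporter that LXR induces, was at 0.15 ± 0.64 for iEOS (limma adjusted p = 0.875) and 0.29 ± 0.64 for rEOS (adjusted p = 0.767). Of 16 genes of TREM2 signalling and lipid-associated macrophages, 6 rose and 3 fell for iEOS, and 7 rose and 3 fell for rEOS. The rEOS count of 7 was 4 without Naive library 1, Naive library 3, rEOS library 1 or rEOS library 3. Spp1, osteopontin, rose by 5.14 ± 0.49 for iEOS and 4.39 ± 0.49 for rEOS, and Msr1, a scavenger receptor, by 3.12 ± 0.63 for iEOS and 3.52 ± 0.63 for rEOS. Gpnmb, a glycoprotein of lipid-associated macrophages and of melanosomes, fell, with a log2 fold change of -4.84 for iEOS and -3.85 for rEOS. Tyrobp, the adaptor through which TREM2 signals, was at 0.61 ± 0.50 for iEOS (adjusted p = 0.355) and 1.05 ± 0.50 for rEOS (adjusted p = 0.153).

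Genes related to the 9 genes, many of them members of the same families and not close copies, were counted as a list of their own, of which 12 were tested. Of these, 7 rose and 1 fell for iEOS, and 6 rose and 1 fell for rEOS. Among all genes, 14.7% rose and 16.6% fell for iEOS, and 12.0% rose and 10.3% fell for rEOS. The count of 7 was 4 without Naive library 1 or iEOS library 3. Ms4a6c is also on the core macrophage and monocyte lists. Ms4a6c, which lies in the same gene family as Ms4a7, stood at 386, 261 and 432 in the libraries labelled iEOS, 385, 1561 and 395 in those labelled rEOS and 42.4, 91.2 and 43.4 in those labelled Naive, and rose by 2.65 ± 0.55 for iEOS (limma adjusted p = 0.00646) and 3.46 ± 0.55 for rEOS (adjusted p = 0.00224). Ly6e, a broadly expressed member of the Ly6 family, rose by 1.63 ± 0.30 for iEOS (adjusted p = 0.00395) and 1.76 ± 0.30 for rEOS (adjusted p = 0.00332). Ly6g, the antigen that marks mouse neutrophils, fell, with a log2 fold change of -3.76 for iEOS (adjusted p = 0.0213) and -3.99 for rEOS (adjusted p = 0.0208), and stood at 0, 2.39 and 5.97 in the libraries labelled iEOS, 0.54, 8.43 and 0 in those labelled rEOS and 25.2, 49.5 and 43.4 in those labelled Naive. It was called under 17 of 21 other settings for iEOS (adjusted p 0.00601 to 0.0919) and 15 of 21 for rEOS (0.00195 to 0.106), and both calls ended with no filter on low values, with edgeR and without Naive library 2 or 3. The call for rEOS also ended without rEOS library 1 or 3.

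**Figure D4:**
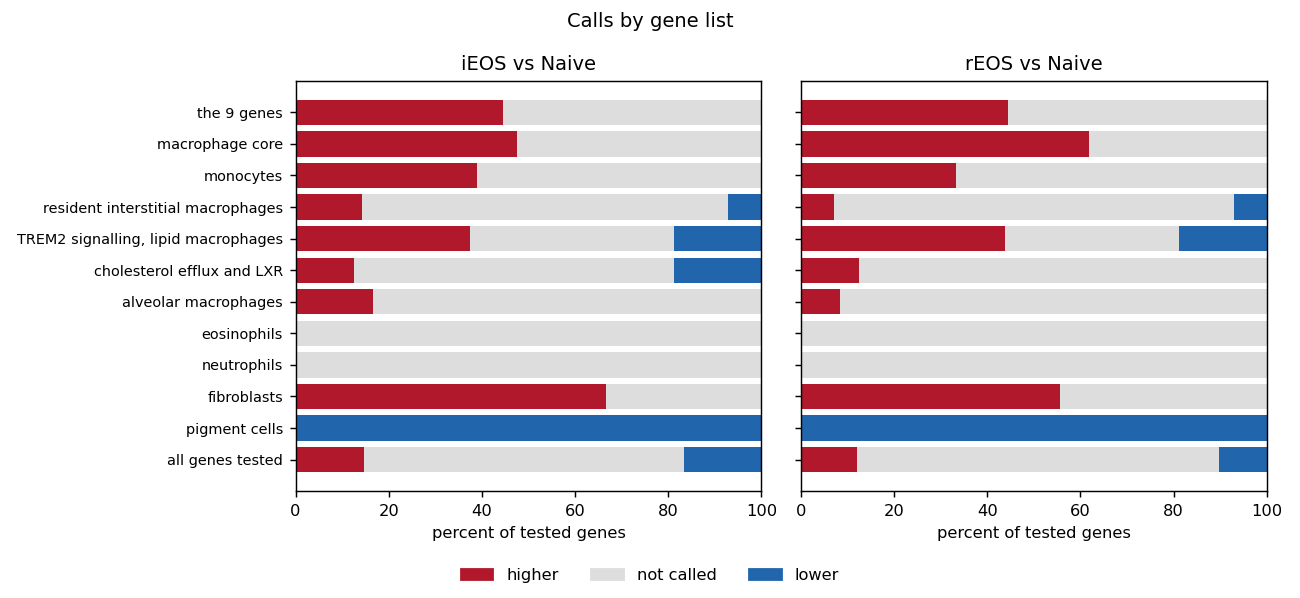
Share of tested genes that were higher, not called or lower (limma adjusted p under 0.05) in each gene list, for iEOS against Naive and rEOS against Naive. The 9 genes have 4 calls, all higher, in each comparison, and the core macrophage list has 10 of 21 for iEOS and 13 of 21 for rEOS.

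Markers of fibroblasts and pigment cells moved with the same groups. Of 9 tested fibroblast genes, 6 rose for iEOS and 5 for rEOS, and their summed level was 23559 to 34797 in the libraries labelled iEOS, 9643 to 24857 in those labelled rEOS and 5669 to 7305 in those labelled Naive. Dcn, the matrix protein decorin, stood at 5562, 3476 and 4332 in the libraries labelled iEOS, 3721, 1129 and 3424 in those labelled rEOS and 104, 281 and 185 in those labelled Naive, so that rEOS library 2 had the least of the 6. The rEOS count of 5 was 3 without rEOS library 1 or 3. All 8 pigment cell genes fell in both comparisons, where 16.6% of all genes fell for iEOS and 10.3% for rEOS. None of 10 neutrophil genes was called, and their sums were 1936 to 3965 in the libraries labelled iEOS, 1235 to 1789 in those labelled rEOS and 2412 to 3502 in those labelled Naive, lowest in all 3 libraries labelled rEOS. Of 12 alveolar macrophage genes, 2 rose for iEOS and 1 for rEOS. The shares of all genes that rose were 14.7% for iEOS and 12.0% for rEOS, so these counts lie near those over all genes. The summed level of the 12 genes was 5789 to 7959 in the libraries labelled iEOS, 3007 to 4581 in those labelled rEOS and 3051 to 4848 in those labelled Naive. The sums labelled iEOS and Naive did not overlap. Most of the sum in every library was Chil3, which is also on the monocyte list, and the groups were not compared without it. Chil3, a chitinase-like protein of alveolar macrophages and also of monocytes, rose to 5839, 4709 and 4525 in the libraries labelled iEOS, against 1966, 2991 and 2302 in those labelled Naive (1.07 ± 0.26, limma adjusted p = 0.0130), and stood at 1962, 2448 and 2242 in those labelled rEOS. Atp6v0d2, a subunit of the vacuolar proton pump, also rose for iEOS (1.67 ± 0.51, adjusted p = 0.0308), with adjusted p-values of 0.00445 to 0.103 under the other settings. Itgax, the integrin CD11c, was the gene that rose for rEOS (1.76 ± 0.54, adjusted p = 0.0411). Without iEOS library 1 and rEOS library 2, 1 gene of this list rose for iEOS, and 0 rose and 1 fell for rEOS. Marco, a scavenger receptor of the same cells, named after its values were seen, was at 63.6 to 88.7 in the libraries labelled iEOS, 48.0 to 90.8 in those labelled rEOS and 52.1 to 94.0 in those labelled Naive. None of the 4 tested eosinophil genes was called. Apoe and Abca1 are also made by fibroblasts and pigment cells, and the part of those cells in the results was not tested.

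The genes nearest to each of the 9 were taken as those with the smallest root mean square difference of log2(value + 1) profiles over the 9 libraries, each centred on its own mean. Likeness to Apoe was led by Nfkbie (0.24), an inhibitor of NF-kB, and Grn (0.24), which encodes the lysosomal protein progranulin. Trem2 was nearest to Cxcr4 (0.35), C1qa (0.35) and Vav1 (0.36). Lyz2 was nearest to Rgs10 (0.18), Mrc1 to Sh3bgrl (0.22), Ly6c2 to Rab20 (0.18), Adgre1 to Fam49b (0.34), Ms4a7 to Clec4a2 (0.35) and Abca1 to Crybg1 (0.35). Cd163 had its nearest gene farther off, Gm13339 at 0.47. Among the 9 genes themselves, Apoe and Ly6c2 lay closest, at 0.50, and Trem2 and Abca1 farthest apart, at 2.41. The points of these profiles share depth and the libraries that stood apart.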

How the data were processed

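The deposited table holds normalized counts as a signal: per the submitters' processing notes, TopHat2 2.1.0, HTSeq and DESeq2 1.10.0 were named with the build GRCm38, with no role or order. The authors' values were counts divided by a size factor, since 100% of values up to 2000 reads were whole reads within 0.05 read, and these recovered reads were used for edgeR and DESeq2. Of 54670 entries, 63 carried date-like names (0.219% of the total), and 116 exact and 42 further duplicates were dropped, leaving 54449 genes, of which 215 share a name or ID. Per library 2205949 to 12495639 reads were recovered.

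Genes with a mean of at least 5 over the 9 libraries were tested on log2(value + 1) with limma 3.58.1 (R 4.3.3), with a variance trend and 1 fit of all libraries. The 22 alternatives were other pseudocounts (0.5 and 5), filters (none and a mean of 20), scalings, fits, left-out libraries, edgeR 4.0.16 and DESeq2 1.42.0. Samples were grouped by their labels. Annotation was GENCODE M21. Named genes were the 9 genes, the related genes Lyz1 and Ly6c1, defining markers and the nearest profiles. In each list, up to 3 called genes per direction with the smallest adjusted p were also named. C1qb, Tyrobp, Abcg1, Lyve1, Folr2, Marco, Hp and the ratios to Csf1r were chosen after their values were seen. The members and lists were chosen with earlier results of these data known. Intervals cover counting error only.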

Additional observations from a re-analysis of the deposited data

How the results depend on the processing

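Without each library in turn, between 2 and 4 of the 9 genes were called for iEOS against Naive, between 3 and 6 for rEOS against Naive and 0 to 0 for iEOS against rEOS. DESeq2 called 7 of the 9 for rEOS against Naive. Over all genes, the fit of only the 2 groups compared gave 2509 calls for iEOS and 4808 for rEOS against Naive, leaving out single libraries gave 2770 to 5101 for iEOS and 1401 to 5167 for rEOS, and leaving out both iEOS library 1 and rEOS library 2 gave 4623 for rEOS. DESeq2 called 6 genes between iEOS and rEOS. The cause of these shifts was not tested. Of the single fold changes under the alternatives, direction and side of the threshold held for 170 values for iEOS against Naive (14 lost and 1 gained a call, 12 changed sign), 172 for rEOS against Naive (8 lost and 17 gained a call) and 175 for iEOS against rEOS (22 changed sign). Equal replicate numbers were not taken as pairs: the deviations of same-numbered libraries correlated at 0.123, 0.141 and 0.0718 between iEOS and rEOS and at -0.0293 to 0.0616 between either and Naive. Between iEOS and rEOS every library correlated best with its own number, a hint from the data and not the design. With the replicate block 3 of the 9 genes were called for iEOS and 4 for rEOS against Naive, 0 between iEOS and rEOS, and 4317 of all genes for iEOS and 3091 for rEOS against Naive.

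Uncalled fold changes changed sign as follows. Against Naive for iEOS, Apoe ranged from -0.12 to 0.54 without single libraries, Ly6c2 from -0.70 to 0.46 and Trem2 from -1.10 to 1.06. Ly6c2 was 0.00498 with quantile normalization, 0.46 without both libraries, 0.22 with edgeR and 0.13 with DESeq2, and Trem2 was 1.06 without both, 0.73 with edgeR and 0.63 with DESeq2. For iEOS against rEOS without single libraries, Adgre1 ranged from -0.68 to 0.45, Lyz2 from -0.63 to 0.19, Ms4a7 from -1.24 to 0.01, Mrc1 from -0.23 to 0.70, Cd163 from -0.69 to 0.59, Ly6c2 from -1.27 to -0.11, Trem2 from -2.77 to -0.61 and Abca1 from -0.23 to 0.37. Without both libraries, Lyz2 was 0.12, Ms4a7 0.10, Ly6c2 0.42 and Trem2 0.0729. Cd163 was 0.0185 with a pseudocount of 5, -1.12 without both libraries, 0.0656 with quantile normalization, 0.18 with edgeR and 0.27 with DESeq2, and Abca1 was -0.0556 with equal totals and -0.0530 with TMM factors.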
